A study of Mus musculus with 20 samples.

Results

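Glutamate handling was followed through 9 genes in cultured mouse cortical neurons: the plasma membrane glutamate transporter genes Slc1a1, Slc1a2 and Slc1a3, the vesicular glutamate transporter genes Slc17a6 and Slc17a7, the enzyme genes Glul and Glud1, and the glutamine carrier genes Slc38a1 and Slc38a2. They were taken by gene symbol, as a set proposed with earlier results of these data known. All 9 of 9 were listed in each of the 4 deposited tables, which together name 14700 genes, and none was lost to a filter on low values. Neurons were isolated at embryonic day 15 from mice of the line C57BL/6N-Cdr1asem1Nikr, were grown for 7 days in medium with 0.2 mM glutamine, and either were wild type (WT) or lacked ciRS-7, a circular RNA made from the gene listed as Cdr1as (knockout, KO). Cultures were then kept for 12 h in normoxia (N) with 25 mM glucose and 0.2 mM pyruvate, or under oxygen and glucose deprivation (OGD), a culture model of ischemia, at 1% oxygen without added glucose or pyruvate. There were 5 total RNA libraries per group (N_WT, OGD_WT, N_KO, OGD_KO), stated to be biological replicates and numbered 1 to 5. Within a genotype, normoxic and OGD libraries of one number carry the same batch label, and such a pair is called a culture below. By their deviations from the group means, 0 of 5 such pairs in each genotype matched best, so counts of cultures rest on the labels. The batch labels are 1, 2, 3.1, 3.2 and 3.3, and batch 3 below pools the last 3 of these, which hold 4 WT and 3 KO cultures.

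Glutamate is the main excitatory transmitter of the cortex. Neurons load it into synaptic vesicles through vesicular transporters, release it, and depend on plasma membrane transporters, most of them on astrocytes, to clear it from the extracellular space. Astrocytes turn much of the glutamate they take up into glutamine, which is exported, taken up again by neurons and converted back to glutamate, a loop called the glutamate-glutamine cycle. Oxygen and glucose deprivation is widely used to study the accumulation of extracellular glutamate in ischemia, and the series compares this condition with normoxia in both genotypes.

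Under OGD the vesicular transporter genes and Slc1a1 fell and Slc1a3 rose in both genotypes, whereas Slc1a2 did not pass the test in either. In WT cultures 7 of 9 genes passed (limma, Benjamini-Hochberg adjusted p under 0.05), 3 higher and 4 lower, in a comparison in which 44.3% of all 14235 genes passed, 21.6% higher and 22.8% lower. In KO cultures 5 of 9 genes passed, 1 higher and 4 lower, against 40.9% of all 14375 genes, 21% higher and 19.9% lower. The N and OGD libraries did not overlap for 6 of 9 genes in WT, against 26.9% of all genes, and for 4 of 9 genes in KO, against 25.8% of all genes. By knockout, 0 of 9 genes passed in either condition (limma), against 0.0353% of all genes in normoxia and 0.0282% under OGD.

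The genes lie on 6 mouse chromosomes (build mm10, GENCODE annotation), and all are annotated as protein coding. Slc1a3 spans positions 8634124 to 8710764 of chromosome 15 and Slc1a2 spans 102658659 to 102790784 of chromosome 2. Slc1a1 spans 28835049 to 28913960 of chromosome 19. The vesicular transporter genes are both on chromosome 7, Slc17a7 at 45163949 to 45176142 and Slc17a6 at 51622006 to 51671119. Glul spans 153899944 to 153909723 of chromosome 1, and Glud1 spans 34310727 to 34345265 of chromosome 14. The glutamine carrier genes are neighbours on the minus strand of chromosome 15, Slc38a1 at 96571418 to 96642913 and Slc38a2 at 96687392 to 96699730, with 44478 bases between them.

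The promoters of the 3 genes with the largest changes, which moved in opposite directions, are shown to set the directions beside the sequence. Each line gives the 250 bases before the RefSeq transcription start (build GRCm38.p6), on the strand of the gene. Capitals mark ACGTG or GCGTG, the core letters of the hypoxia response element bound by hypoxia-inducible factors, searched on both strands. The regions are chr7:45163671-45163920 (plus strand) for Slc17a7, chr7:51621580-51621829 (plus strand, the first of 2 starts listed) for Slc17a6 and chr15:8710808-8711057 (minus strand) for Slc1a3.
Slc17a7: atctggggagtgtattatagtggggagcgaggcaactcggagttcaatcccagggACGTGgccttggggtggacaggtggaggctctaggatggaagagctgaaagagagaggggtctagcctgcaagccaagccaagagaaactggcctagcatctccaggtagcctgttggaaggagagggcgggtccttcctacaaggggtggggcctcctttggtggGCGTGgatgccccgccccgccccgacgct
Slc17a6: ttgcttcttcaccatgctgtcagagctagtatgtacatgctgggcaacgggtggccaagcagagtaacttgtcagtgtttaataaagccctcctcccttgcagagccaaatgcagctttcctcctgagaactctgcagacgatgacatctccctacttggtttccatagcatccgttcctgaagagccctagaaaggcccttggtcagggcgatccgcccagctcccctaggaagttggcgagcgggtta
Slc1a3: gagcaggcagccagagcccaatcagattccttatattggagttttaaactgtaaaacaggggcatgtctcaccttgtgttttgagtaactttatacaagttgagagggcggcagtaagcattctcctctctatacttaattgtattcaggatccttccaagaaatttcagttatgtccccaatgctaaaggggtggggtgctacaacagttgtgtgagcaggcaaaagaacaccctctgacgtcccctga
In windows of 300 bases (250 before to 50 after the start), 8 of the 9 genes were matched by symbol, with 9 windows. Of these 9 windows, 5 held ACGTG or GCGTG, each in a different gene, against 43.8% of all 32851 promoter windows. ACGTG alone was in 19.6% of all windows and GCGTG in 32.4%. Slc17a7 held one of each, 195 and 29 bases before the start. Slc1a3 held 1 ACGTG, 30 bases after the start and so outside the printed stretch. Glud1 held GCGTG at 3 positions and Slc1a1 at 2, and Slc38a2 held 1, 28 bases after the start. TGATGNAAT, a composite element bound by C/EBP and ATF factors, was in 0 of these 9 windows and in 0.965% of all windows. Slc38a1 was not matched.

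Recovered reads (reads counted back from the deposited values) totalled 7071603 to 16657766 per library. Cdr1as, the target of the knockout, was lower in KO by 6.32 log2 units in normoxia and by 6.26 under OGD, and the hypoxia-responsive genes Slc2a1 and Vegfa were higher under OGD by 3.95 and 3.29 in WT, so these genes went with the labels. Neuron markers were all listed (10 of 10), with a summed level of 6707 to 8181 CPM in N_WT. Astrocyte markers were listed for 10 of 12 genes (S100b and Gjb6 were not), with a summed level of 413 to 584 CPM in N_WT, and 0 of 8 microglia and 0 of 5 endothelial markers were listed. The mitochondrial ribosomal RNA mt-Rnr2 took 10.1% to 14.0% of reads in N_WT and 13.8% to 24.6% in OGD_WT, 10.1% to 16.4% in N_KO and 18% to 32.0% in OGD_KO, and its part in the results was not tested beyond the scaling given next. Levels below are log2 CPM (CPM, read counts scaled by library size) on the scale of the authors' tables, on which the median log2 fold change of all genes under OGD was -0.028 in WT and 0.0027 in KO. Scaling to the recovered total moved these medians to -0.30 and -0.28 and the calls over all genes from 3069 higher and 3244 lower to 1625 and 5744 in WT, and from 3021 and 2863 to 1479 and 5289 in KO.

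**Figure D1:**
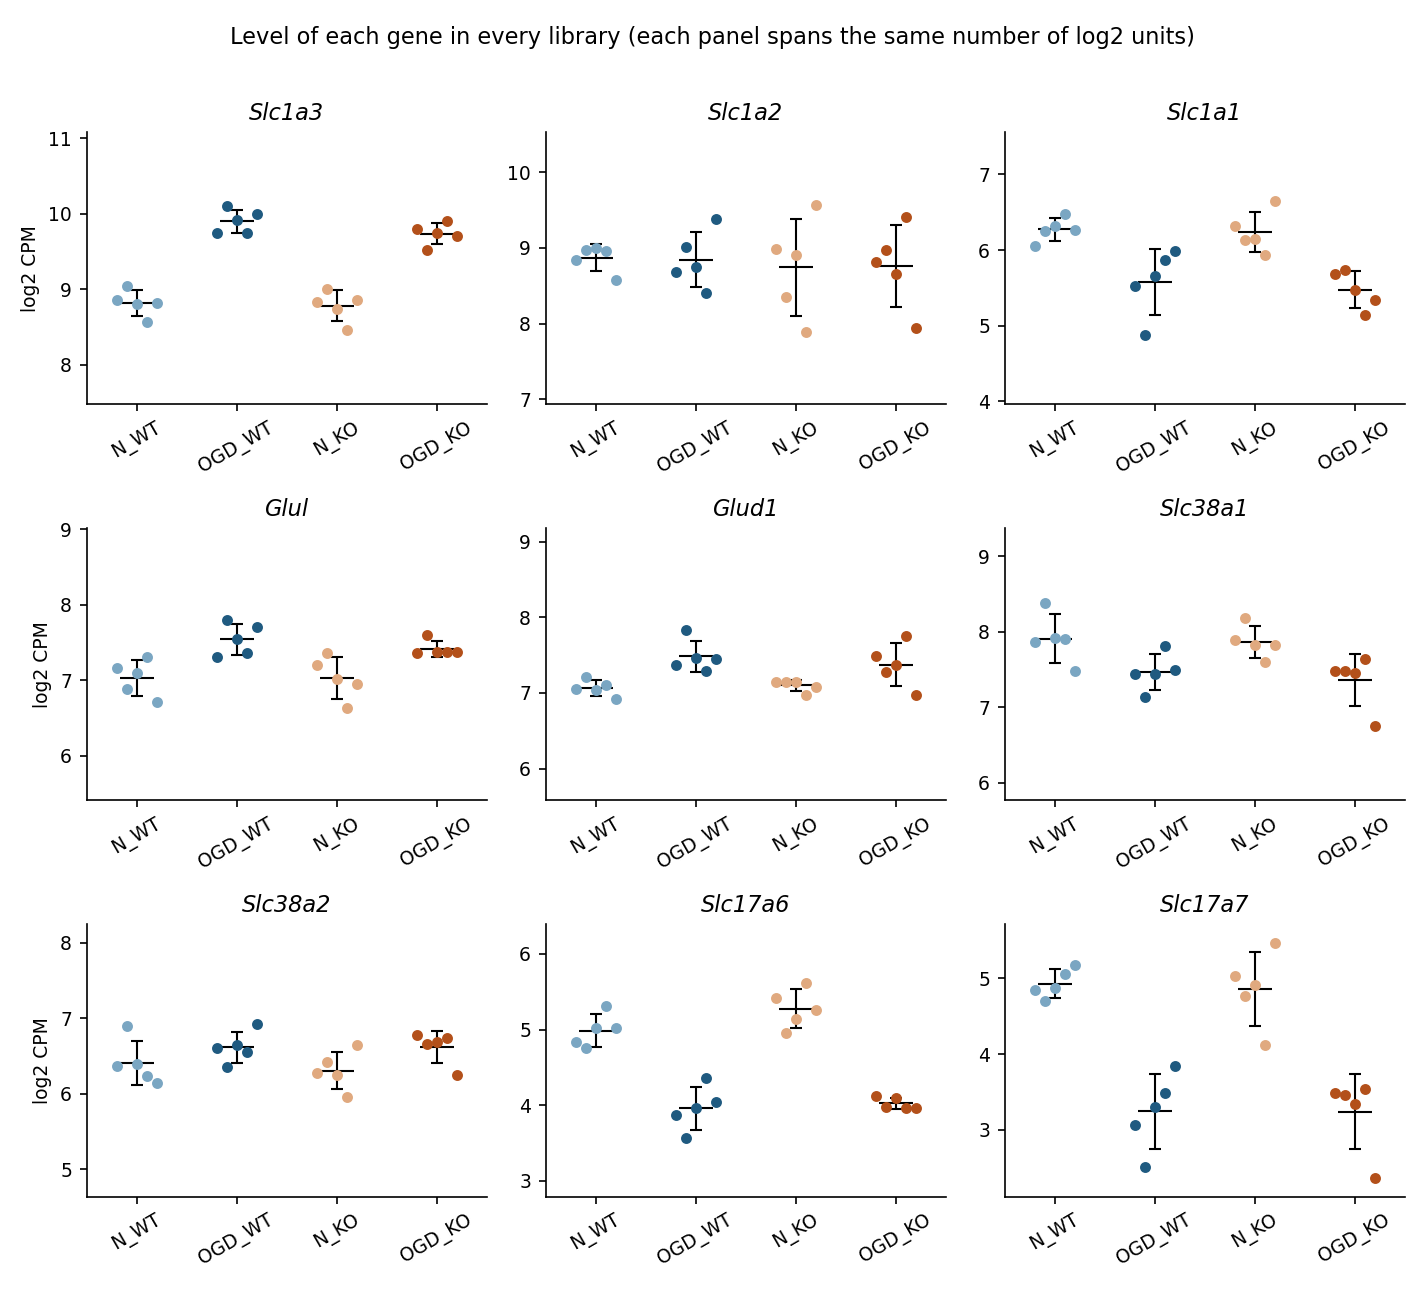
Level of each gene in log2 CPM (y axis, the same span in each panel) in every library of the 4 groups (x axis). Points are the libraries of cultures 1 to 5 from left to right, and bars are the mean and SD. The OGD libraries of Slc1a3 lie above the normoxic ones of the same genotype and those of Slc17a6, Slc17a7 and Slc1a1 below them, while Slc1a2 spreads from 7.89 to 9.57 in N_KO alone.

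Compared per kilobase of annotated exon, so that genes can be set side by side, Slc1a3 had the highest level in N_WT, at 53.2 CPM per kilobase ± 6.17 (SD, n = 5), followed by Glul at 39.7 ± 6.29, Slc1a2 at 35.9 ± 4.15 and Glud1 at 31.8 ± 2.3. Slc38a1 followed at 14.2 ± 3.24, Slc38a2 at 9.76 ± 2.18 and Slc1a1 at 9.41 ± 0.98, and the vesicular genes were lowest, Slc17a6 at 5.92 ± 0.91 and Slc17a7 at 5.69 ± 0.75. Libraries of neighbours in this order overlapped except between Glud1 and Slc38a1 and between Slc1a1 and Slc17a6. Under OGD in WT, Slc1a3 was at 112 ± 12.1 CPM per kilobase and no longer overlapped with Glul at 56.5 ± 8.12. The lower end of the order held Slc1a1 at 6.00 ± 1.59, Slc17a6 at 2.92 ± 0.59 and Slc17a7 at 1.83 ± 0.60 CPM per kilobase. The level per kilobase depends on the annotated exons, of which not all need be used in these cells.

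Slc1a3 encodes the glutamate transporter GLAST, which takes up glutamate into astrocytes and is also made by radial glia. In N_WT cultures 1 to 5 it was at 8.86, 9.04, 8.81, 8.57 and 8.82 log2 CPM, and in OGD_WT at 9.74, 10.10, 9.91, 9.74 and 9.99. In N_KO it was at 8.84, 9.01, 8.74, 8.46 and 8.86, and in OGD_KO at 9.79, 9.52, 9.75, 9.91 and 9.71. Every OGD library lay above every normoxic library in both genotypes, with 3391 reads or more behind each value. The log2 fold change was 1.08 with SE 0.15 in WT, 2.11-fold higher, at a limma adjusted p of 6.95e-06. In KO it was 0.95 with SE 0.16, 1.94-fold higher, at a limma adjusted p of 0.000135. The rise was seen in 5 of 5 cultures of each genotype, and the exact permutation p was 0.00794 in both, the smallest that 5 against 5 libraries allow. For this gene and those below without overlap, this count and this p follow from the lack of overlap and are not separate evidence. It was the one gene of the 9 called higher in both genotypes. Within batch 3 the difference was 1.13 in WT (4 cultures, limma adjusted p 0.000107) and 0.94 in KO (3 cultures, limma adjusted p 0.0653).

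Slc1a2 encodes GLT1, the glutamate transporter that carries most of the uptake in the adult forebrain and is mainly on astrocytes. Its levels were 8.84, 8.98, 9.0, 8.97 and 8.57 log2 CPM in N_WT and 8.69, 9.01, 8.75, 8.41 and 9.38 in OGD_WT. In N_KO they were 8.99, 8.35, 8.91, 7.89 and 9.57, and in OGD_KO 8.82, 8.97, 8.66, 9.42 and 7.94. The groups overlapped throughout, and KO culture 4 was lowest in normoxia and highest under OGD, whereas KO culture 5 was highest in normoxia and lowest under OGD. The OGD minus N difference of single cultures thus ran from -0.56 to 0.81 in WT and from -1.63 to 1.52 in KO. The log2 fold change was -0.03 in WT (95% interval -0.38 to 0.33, limma adjusted p 0.918) and 0.02 in KO (interval -0.57 to 0.60, limma adjusted p 0.965). Changes within these intervals are not excluded. The intervals are not adjusted for the number of genes, so a somewhat larger change could also have missed the adjusted threshold. On scaling to the recovered total, the log2 fold change was -0.31 in WT (limma adjusted p 0.165) and -0.27 in KO (limma adjusted p 0.479). The value near 0 thus depends on the scale.

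The ratio of these astrocyte transporter genes within a library does not depend on scaling. Slc1a3 over Slc1a2 had a mean log2 ratio of -0.05 ± 0.25 (SD, n = 5) in N_WT and 1.05 ± 0.27 in OGD_WT, with no overlap between the groups. In KO the mean ratio went from 0.04 ± 0.57 to 0.98 ± 0.51 (SD, n = 5), and the groups overlapped, from -0.71 to 0.66 in N_KO and from 0.49 to 1.77 in OGD_KO.

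Slc1a1 encodes EAAC1, the plasma membrane glutamate transporter of neurons, which also carries cysteine. It was at 6.05, 6.26, 6.32, 6.47 and 6.27 log2 CPM in N_WT and at 5.52, 4.87, 5.65, 5.87 and 5.98 in OGD_WT. In N_KO it was at 6.31, 6.14, 6.15, 5.93 and 6.64, and in OGD_KO at 5.69, 5.74, 5.47, 5.14 and 5.34. All OGD libraries lay below all normoxic ones of the same genotype. Slc1a1 fell by 0.69 with SE 0.18 in WT, 1.62-fold lower (limma adjusted p 0.0032) and in KO by 0.76 with SE 0.16, 1.69-fold lower (limma adjusted p 0.0011), in 5 of 5 cultures each and with an exact permutation p of 0.00794 in both. Of the exon bases of Slc1a1, 31.9% overlap exons of 4430402I18Rik on the opposite strand. The library kit marks strand, but whether counting used it is not given in the sources used here, so reads of these genes may not be told apart. 4430402I18Rik itself is not listed in the tables.

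The vesicular transporters fill synaptic vesicles with glutamate, and their genes mark glutamatergic neurons, with Slc17a7 (VGLUT1) dominant in the mature cortex and Slc17a6 (VGLUT2) common in the developing cortex and the thalamus. Slc17a7 was at 4.84, 4.70, 4.87, 5.05 and 5.18 log2 CPM in N_WT and at 3.06, 2.51, 3.31, 3.49 and 3.84 in OGD_WT. In N_KO it was at 5.04, 4.77, 4.92, 4.12 and 5.47, and in OGD_KO at 3.49, 3.46, 3.33, 3.54 and 2.36. The normoxic and OGD libraries did not overlap in either genotype, and OGD_KO culture 5 stood below the other 4 of its group. Slc17a7 fell by 1.69 with SE 0.19 in WT, 3.23-fold lower (limma adjusted p 7.25e-07) and in KO by 1.62 with SE 0.24, 3.08-fold lower (limma adjusted p 3.28e-05). These were the largest changes among the 9 genes on this scale, and 0.372% of all genes in WT and 0.410% in KO had a lower log2 fold change. The counts behind them were small under OGD, 56 to 137 reads per library in OGD_WT and 28 to 147 in OGD_KO, against 273 to 406 in N_WT and 163 to 714 in N_KO.

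Slc17a6 was at 4.84, 4.75, 5.01, 5.31 and 5.02 log2 CPM in N_WT and at 3.87, 3.56, 3.96, 4.36 and 4.04 in OGD_WT. It was at 5.41, 4.96, 5.14, 5.62 and 5.25 in N_KO and at 4.12, 3.98, 4.10, 3.97 and 3.96 in OGD_KO. No OGD library reached the lowest normoxic library of its genotype, and the OGD_KO libraries had the smallest spread of the 4 groups (SD 0.076). Slc17a6 fell by 1.03 with SE 0.16 in WT, 2.04-fold lower (limma adjusted p 3.05e-05) and in KO by 1.25 with SE 0.14, 2.38-fold lower (limma adjusted p 2.83e-06), in 5 of 5 cultures each. The exact permutation p was 0.00794 for Slc17a6 and Slc17a7 in both genotypes. Slc17a7 over Slc17a6 had a mean log2 ratio of -0.06 in N_WT and -0.72 in OGD_WT, and of -0.42 in N_KO and -0.79 in OGD_KO, and the groups overlapped in both genotypes.

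Glul encodes glutamine synthetase, the enzyme with which astrocytes make glutamine from glutamate and ammonia. Its levels were 7.16, 6.88, 7.09, 7.30 and 6.71 log2 CPM in N_WT and 7.31, 7.79, 7.55, 7.36 and 7.70 in OGD_WT. In N_KO they were 7.20, 7.36, 7.02, 6.63 and 6.95, and in OGD_KO 7.36, 7.59, 7.37, 7.37 and 7.37. The WT groups were separate by a narrow margin, and the KO groups met, since N_KO culture 2 reached the lower OGD_KO libraries. Glul rose in WT by 0.51 with SE 0.15, 1.43-fold higher (limma adjusted p 0.0096). In KO the log2 fold change was 0.38 with SE 0.15 (limma adjusted p 0.0541, exact permutation p 0.0159), higher in 5 of 5 cultures without passing the threshold, and without OGD_KO culture 5 or N_KO culture 2 it passed (limma adjusted p 0.0477 and 0.0216). Scaled to the recovered total, Glul differed by 0.23 in WT (limma adjusted p 0.235) and by 0.09 in KO (limma adjusted p 0.691), so the call in WT holds relative to the bulk of genes and not relative to all reads. Of the 50-base words of Glul, 12.6% also occur in other genes, most often in the pseudogene Glns-ps1, and its exons overlap those of Teddm2 on the opposite strand over 3.49% of their bases.

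Glud1 encodes glutamate dehydrogenase, the mitochondrial enzyme that feeds the carbon of glutamate into the citric acid cycle. It was at 7.05, 7.20, 7.04, 7.11 and 6.92 log2 CPM in N_WT and at 7.37, 7.84, 7.47, 7.29 and 7.45 in OGD_WT. It was at 7.14, 7.15, 7.15, 6.98 and 7.08 in N_KO and at 7.49, 7.28, 7.37, 7.76 and 6.97 in OGD_KO. In WT the groups did not overlap, and in KO only culture 5 of the OGD group lay among the normoxic libraries. Glud1 rose in WT by 0.42 with SE 0.14, 1.34-fold higher (limma adjusted p 0.0206), and differed in KO by 0.27 with SE 0.15 (limma adjusted p 0.160). The WT call was lost without OGD_WT culture 3 (limma adjusted p 0.0503), without N_WT culture 3 (limma adjusted p 0.0559), within batch 3 (limma adjusted p 0.0796) and on scaling to the total (0.14, limma adjusted p 0.462). Without OGD_KO culture 5 the KO difference was 0.37 (limma adjusted p 0.0404), and on scaling to the total it was -0.02 (limma adjusted p 0.947). Of its 50-base words, 6.49% occur in other genes, most often the pseudogene Glud-ps.

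Slc38a1 and Slc38a2 encode SNAT1 and SNAT2, sodium-coupled carriers that bring glutamine and other neutral amino acids into cells, and Slc38a2 is known to be induced by amino acid shortage. Slc38a1 was at 7.87, 8.38, 7.91, 7.90 and 7.48 log2 CPM in N_WT and at 7.44, 7.13, 7.44, 7.81 and 7.5 in OGD_WT. It was at 7.89, 8.18, 7.83, 7.60 and 7.83 in N_KO and at 7.48, 7.48, 7.45, 7.64 and 6.76 in OGD_KO. The groups overlapped in both genotypes, and 4 of 5 cultures of each were lower under OGD. Slc38a1 fell by 0.45 (SE 0.17) in WT at a limma adjusted p of 0.0352 and in KO by 0.50 with SE 0.17 (limma adjusted p 0.0275). This call did not hold with the replicate number as a block in WT (limma adjusted p 0.0663), within batch 3 in either genotype (limma adjusted p 0.107 in WT and 0.251 in KO), or without any one of 7 of the 10 WT libraries and 4 of the 10 KO libraries. On scaling to the total it was larger, -0.73 in WT and -0.79 in KO.

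Slc38a2 was at 6.36, 6.90, 6.39, 6.23 and 6.14 log2 CPM in N_WT and at 6.6, 6.35, 6.65, 6.56 and 6.92 in OGD_WT. It was at 6.28, 6.41, 6.25, 5.96 and 6.64 in N_KO and at 6.77, 6.66, 6.69, 6.74 and 6.25 in OGD_KO. The groups overlapped in both genotypes. The log2 fold change was 0.21 in WT (95% interval -0.12 to 0.54, limma adjusted p 0.297) and 0.32 in KO (interval -0.01 to 0.64, limma adjusted p 0.112), and on scaling to the total it was -0.07 and 0.02. Without OGD_KO culture 5, the lowest of its group, the KO difference was 0.41 (limma adjusted p 0.0307). Set against each other in the same library, these neighbouring genes did separate the conditions: Slc38a2 over Slc38a1 had a mean log2 ratio of -1.50 ± 0.12 (SD, n = 5) in N_WT and -0.85 ± 0.25 in OGD_WT, and of -1.56 ± 0.22 in N_KO and -0.74 ± 0.15 in OGD_KO. The groups did not overlap in either genotype.

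**Figure D2:**
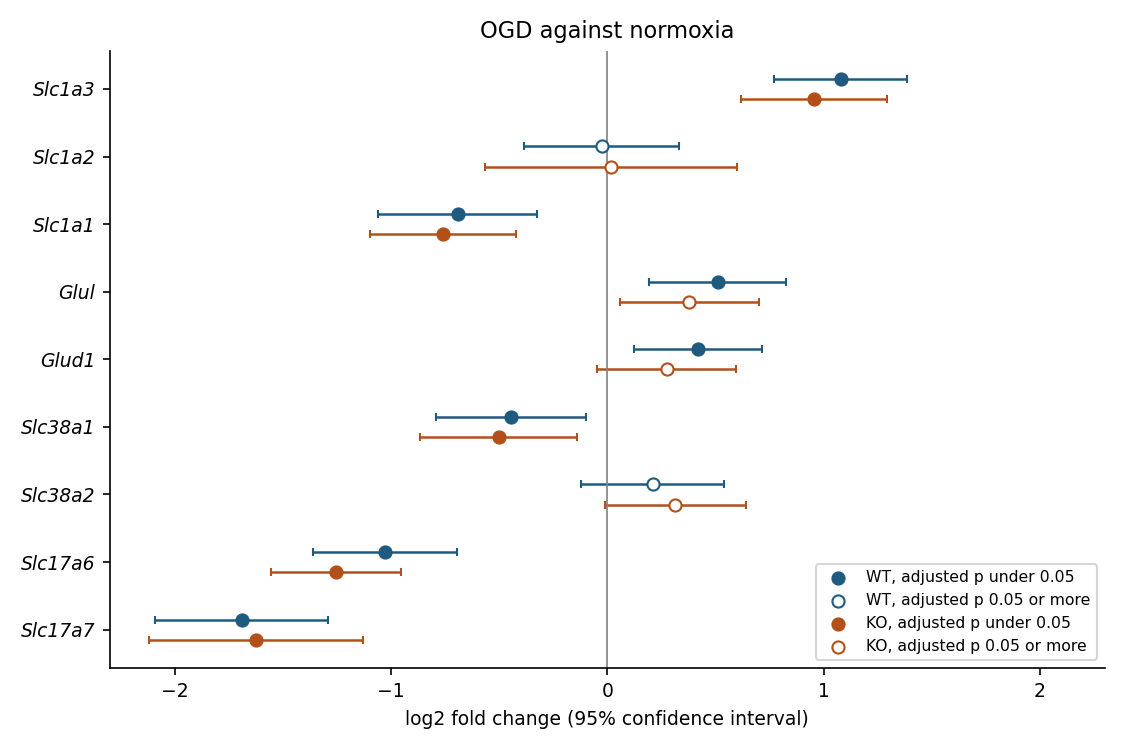
Log2 fold change of OGD against normoxia (x axis) for the 9 genes (y axis) in WT and KO cultures, with 95% confidence intervals from limma; filled points passed an adjusted p under 0.05. Slc1a3 lies near 1.08 and 0.95, Slc17a7 near -1.69 and -1.62, and the intervals of WT and KO overlap for each gene.

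**Figure D3:**
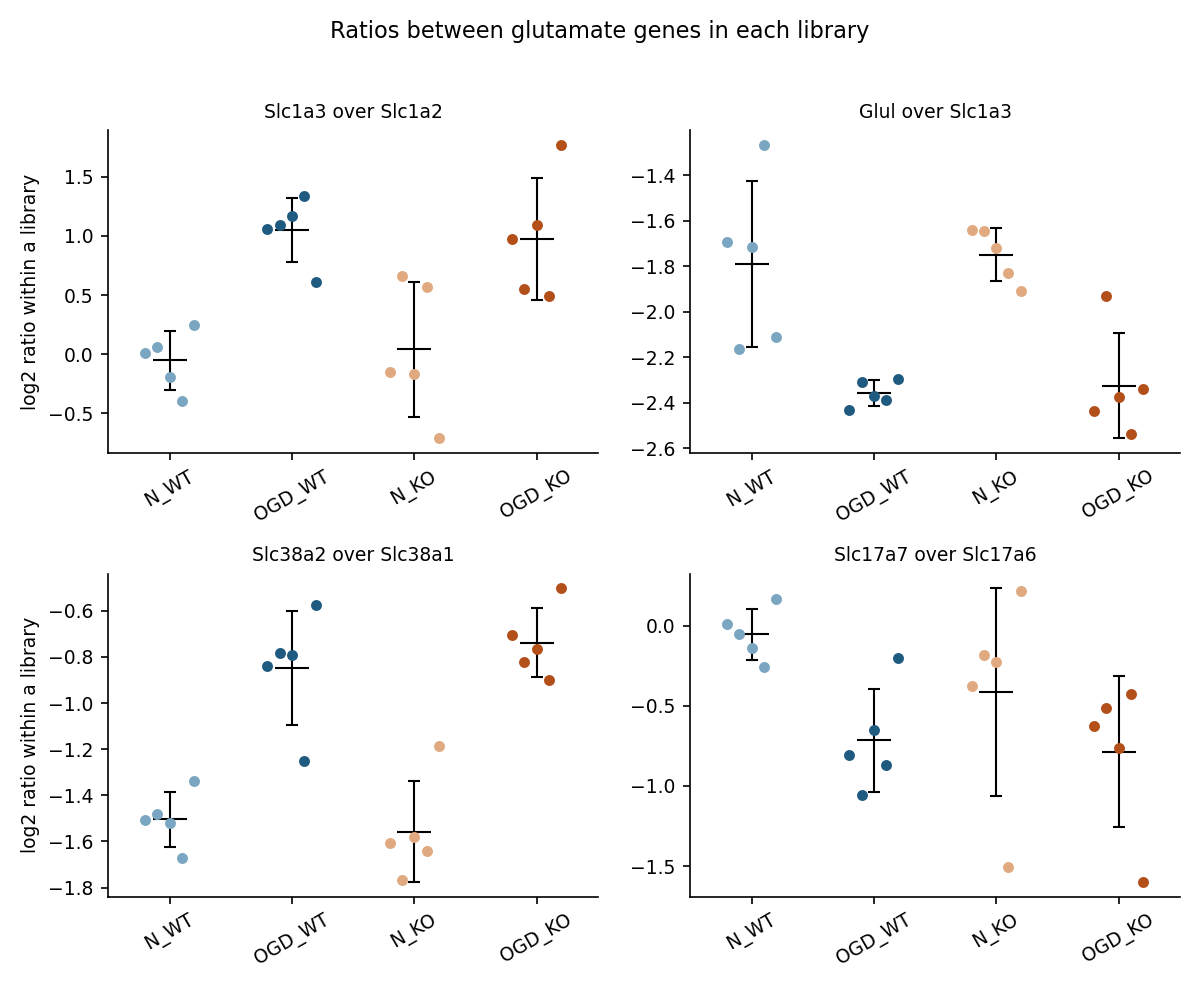
Log2 ratio between pairs of the genes within each library (y axis) in the 4 groups (x axis), with points for cultures 1 to 5 from left to right and bars for the mean and SD. Slc38a2 over Slc38a1 and Glul over Slc1a3 separate N from OGD in both genotypes, Slc1a3 over Slc1a2 does so in WT, and Slc17a7 over Slc17a6 overlaps.

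The cell types that express these genes also differed between the conditions in their other markers. In bulk RNA, fewer cells of a type and less RNA per cell cannot be told apart. Among astrocyte markers 7 of 10 rose and 1 fell under OGD in WT, with a median log2 fold change of 0.82, and 5 rose and 0 fell in KO, with a median of 0.65. Their summed level was 714 to 882 CPM in OGD_WT against 413 to 584 in N_WT, and 591 to 906 in OGD_KO against 412 to 554 in N_KO. The gap junction gene Gja1 was higher by 1.06 in WT and 0.91 in KO, whereas the water channel gene Aqp4 differed by 0.05 and 0.01. The astrocyte filament gene Gfap fell in WT, by 0.47, and differed by -0.34 in KO without passing the test. Neuron markers fell for 4 of 10 genes in WT and 5 of 10 in KO, with medians of -0.40 and -0.55, and markers of glutamatergic neurons for 6 of 6 in both, with a median of -0.91 in each. Scaled to the recovered total, neuron markers fell for 10 of 10 genes in both genotypes, with medians of -0.68 and -0.84. Astrocyte markers then rose for 6 and fell for 1 in WT (median 0.58), and rose for 4 and fell for 1 in KO (median 0.36). In batch 3 alone, astrocyte markers rose for 7 of 10 genes in WT and 2 of 10 in KO. Neuron markers there fell for 3 of 10 and 2 of 10, and glutamatergic markers for 6 of 6 and 4 of 6. GABAergic markers fell for 2 of 7 in each genotype, with medians of -0.19 and -0.15. Over all genes tested, 21.6% rose and 22.8% fell in WT, and 21% rose and 19.9% fell in KO. The GABAergic counts were near the share of all genes that fell. Markers of progenitors, which include radial glia, rose for 3 of 8 genes in each genotype and fell for 1 in WT and 0 in KO, with medians of 0.43 and 0.33. Those that rose were Vim (1.25 and 1.28), Sox2 (0.70 in both) and Hopx (0.92 and 0.54). Eomes fell in WT, by 0.48 (limma adjusted p 0.0202), and differed by -0.34 in KO without passing the test. Pax6, Nes, Fabp7 and Hes5 did not pass in either genotype, at 0.13, 0.32, 0.26 and 0.55 in WT. The summed level of the progenitor list was 679 to 1050 CPM in N_WT and 963 to 1705 in OGD_WT, 693 to 1082 in N_KO and 1187 to 1539 in OGD_KO. The part of progenitors in the rise of Slc1a3 was not tested.

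Set over the mean of the astrocyte markers in the same library, Slc1a3 was higher under OGD, by 0.53 in WT and 0.47 in KO, and the groups did not overlap in either. This mean includes markers that fell, and single markers changed by -0.47 to 1.06 in WT and -0.34 to 1.02 in KO. Slc1a3, at 1.08 and 0.95, was thus about level with the markers that rose most. Glul over the same markers differed by -0.04 and -0.10, Glud1 by -0.13 and -0.21, and Slc1a2 by -0.58 and -0.46, with overlap in each case. Glul over Slc1a3 was lower in every OGD library than in any normoxic library of its genotype, with a mean log2 ratio of -1.79 ± 0.36 (SD, n = 5) in N_WT and -2.36 ± 0.06 in OGD_WT, and of -1.75 ± 0.12 in N_KO and -2.32 ± 0.23 in OGD_KO.

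Slc17a7 over the mean of the neuron markers was lower by 1.22 log2 units in WT and 1.05 in KO, and over the markers of glutamatergic neurons by 0.76 and 0.74, without overlap for both marker sets in WT and for the neuron markers in KO. Slc17a6 was lower over the neuron markers by 0.56 and 0.68 without overlap, but over the glutamatergic markers it differed by -0.10 and -0.37 with overlap. Slc1a1 over the neuron markers differed by -0.22 and -0.19, and Slc38a1 by 0.02 and 0.07, with overlap. Glud1 over the neuron markers was higher by 0.89 and 0.85 without overlap. The part of cell composition in these differences was not tested, since the ratios do not tell cell number from RNA per cell.

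**Figure D4:**
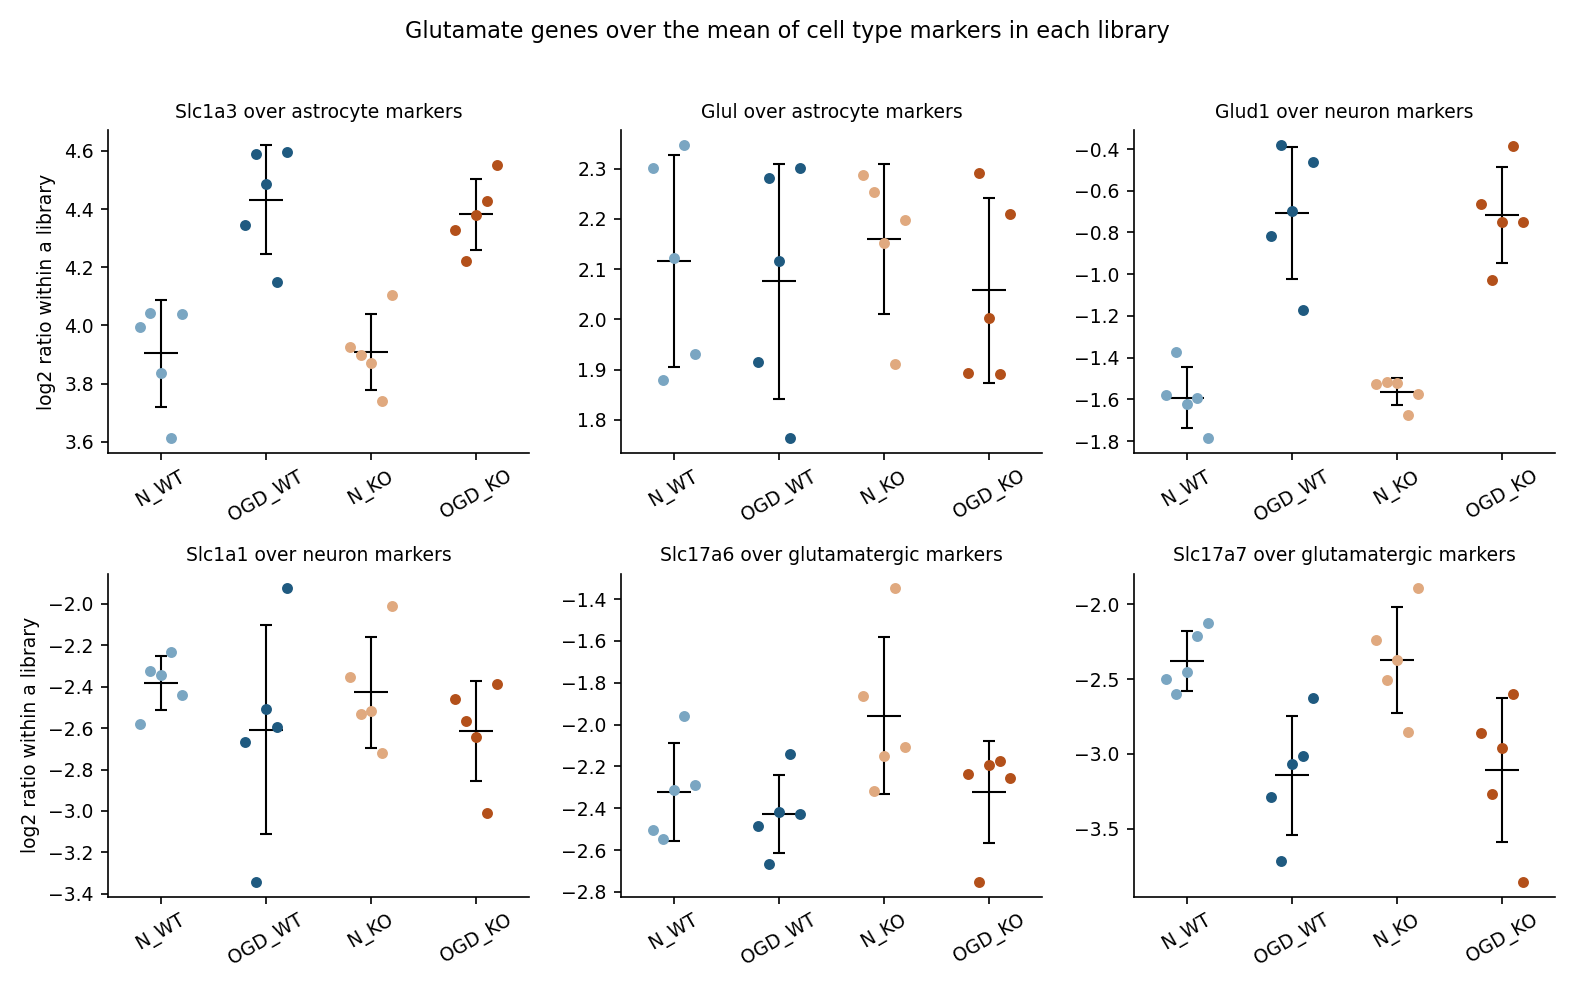
Log2 ratio of 6 genes over the mean log2 level of cell type markers in the same library (y axis) in the 4 groups (x axis), with points for cultures 1 to 5 from left to right and bars for the mean and SD. Slc1a3 is higher under OGD by 0.53 and 0.47 over the mean of the astrocyte markers, whereas Glul and Slc1a1 overlap between the conditions.

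The knockout was compared within each condition. In normoxia 0 of 9 genes passed (limma), where 0.0353% of 14152 genes did, and 1 of 9 had an unadjusted p under 0.05. This was Slc17a6, higher in N_KO by 0.33 with SE 0.15 (limma adjusted p 1, exact permutation p 0.0794), with levels in the table of this comparison of 5.43 ± 0.26 (SD, n = 5) in N_KO and 5.11 ± 0.22 in N_WT. The other 8 log2 fold changes lay between -0.09 for Slc1a2 and 0.07 for Glud1. Scaled to the total, in batch 3 alone or with batch as a covariate, 0 of 9 had an unadjusted limma p under 0.05. The genotypes are not balanced over batches, since batch 2 holds KO cultures only and batch 3.2 WT cultures only. Under OGD 0 of 9 genes passed, where 0.0282% of 14185 genes did, and 0 of 9 had an unadjusted p under 0.05. The log2 fold changes ran from -0.15 for Slc1a3 (95% interval -0.47 to 0.18) to 0.08 for Slc17a6 (interval -0.24 to 0.41). The widest intervals under OGD were those of Slc17a7, -0.52 to 0.54, and Slc1a2, -0.57 to 0.43. These intervals are not adjusted for the number of genes, so changes beyond them could also have missed the adjusted threshold. Voom in limma on the recovered reads also called 0 of 9 in each condition.

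**Figure D5:**
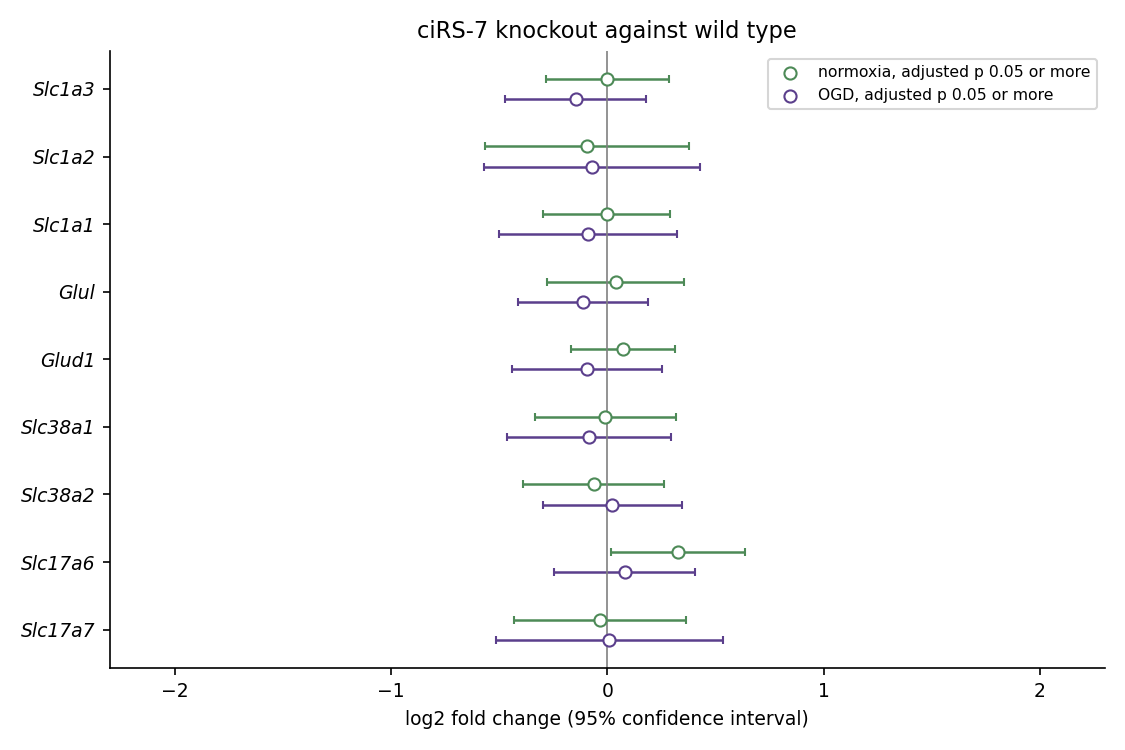
Log2 fold change of KO against WT (x axis) for the 9 genes (y axis) in normoxia and under OGD, with 95% confidence intervals from limma; open points did not pass an adjusted p under 0.05. The differences lie between -0.15 and 0.33, and the interval of Slc17a6 in normoxia is the one that does not reach 0.

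Whether the response to OGD differed between the genotypes was tested by the interaction of genotype and treatment over all 20 libraries. It passed for 0 of 9 genes and for 0% of 13688 genes (limma), and 0 of 9 genes and 158 of all genes had an unadjusted p under 0.05. For Slc17a6 the response in KO minus that in WT was -0.24 (95% interval -0.68 to 0.20), for Glud1 -0.16 (-0.63 to 0.31), for Glul -0.14 (-0.61 to 0.33) and for Slc1a3 -0.14 (-0.59 to 0.32). The intervals of Slc17a7 (-0.67 to 0.78) and Slc1a2 (-0.74 to 0.81) were the widest. Glul and Glud1, which passed in WT and not in KO, are therefore not shown to respond differently.

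Other genes of glutamate and glutamine metabolism were taken from a list of 36 transporters and enzymes. Among 33 that the WT comparison listed, 8 rose and 7 fell under OGD, with a median log2 fold change of -0.07, and among 32 in the KO comparison, 9 rose and 6 fell, with a median of -0.14. Over all genes 44.3% passed in WT and 40.9% in KO, and the share of the list that passed was near these. On scaling to the recovered total the counts became 6 and 15 in WT and 5 and 13 in KO. In both genotypes 8 genes rose and 4 fell, among genes with a mean of at least 1 log2 CPM. The list held 0 genes called by knockout in either condition (limma), of 32 in normoxia and 31 under OGD.

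Slc7a11, the light chain of the exchanger that releases glutamate in return for cystine, rose most of the list, by 1.82 (SE 0.20, limma adjusted p 4.02e-07) in WT and by 2.12 (SE 0.17, limma adjusted p 4.77e-08) in KO. It was at 3.21, 3.58, 3.51, 3.52 and 3.20 log2 CPM in N_WT and at 4.89, 4.55, 5.24, 5.55 and 5.91 in OGD_WT. In N_KO it was at 3.24, 3.08, 3.19, 3.14 and 3.58, and in OGD_KO at 5.81, 4.86, 5.35, 5.5 and 5.32. The groups did not overlap in either genotype. Slc3a2, the heavy chain of the same exchanger, rose by 1.05 and 1.08, and Slc7a5, whose product pairs with it to exchange large neutral amino acids for glutamine, by 0.77 and 0.76, though not on scaling to the total (limma adjusted p 0.0994 in WT and 0.138 in KO), with the replicate block (limma adjusted p 0.0687 and 0.0522) or, in KO, in batch 3 alone (limma adjusted p 0.136). Slc38a3, the glutamine carrier SNAT3 through which astrocytes are known to export glutamine, rose by 0.95 and 0.89, without overlap. Psat1, an aminotransferase of serine synthesis that uses glutamate, rose by 0.70 and 0.75, though in KO not in batch 3 alone (limma adjusted p 0.103).

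Slc38a9, a lysosomal amino acid sensor, fell by 0.89 and 0.60, though in KO not with the replicate block (limma adjusted p 0.101) or in batch 3 alone (limma adjusted p 0.156). Slc25a22, a mitochondrial glutamate carrier, fell by 0.74 and 0.66, though in KO not in batch 3 alone (limma adjusted p 0.098). Gad2, which makes GABA from glutamate, fell by 0.52 and 0.62, and Ogdh, a subunit of the oxoglutarate dehydrogenase complex, by 0.44 and 0.49, though Ogdh did not pass in batch 3 alone in either genotype (limma adjusted p 0.1002 in WT and 0.275 in KO). Slc17a8, the third vesicular glutamate transporter gene, fell by 0.74 and 0.73 at mean levels of 1.08 log2 CPM or less in each group, and not in batch 3 alone (limma adjusted p 0.0626 and 0.112). Gls2, listed in the WT table of OGD and normoxia, differed by -0.22 (limma adjusted p 0.419), with 8 to 20 reads per library in N_WT and 7 to 17 in OGD_WT. The neutral amino acid carrier genes of the Slc1 family did not pass, Slc1a4 at -0.13 and -0.12 and Slc1a5 at -0.44 and 0.08. On scaling to the total they passed in WT, Slc1a4 at -0.41 (limma adjusted p 0.0455) and Slc1a5 at -0.76 (limma adjusted p 0.0144), but not in KO. Slc1a5 had only 13 to 30 reads per library in N_WT and 6 to 19 in OGD_WT.

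For each of the 9 genes, the genes most alike over the 20 libraries were found by the root mean square difference of centred log2 CPM. Here log2 CPM came from the recovered reads scaled to their total, not from the scale of the authors' tables. The closest to Slc1a3 were Rps4x at 0.11 and Zyx at 0.12, against a standard deviation of Slc1a3 of 0.41 and a median distance of 0.60 over 12686 genes. For Slc17a7 they were Scn2b at 0.24 and Kcnv1 at 0.26, and for Slc17a6 Acot9 and Ppp1r14c, both at 0.18. Slc1a1 was closest to Fbxo41 (0.13) and Ldah (0.15), and Slc1a2 to Agpat3 (0.16) and Adcyap1r1 (0.17). Glul was closest to Sparcl1 and Zfp592, both at 0.12, and Glud1 to Eif4g2 (0.099) and Dip2b (0.10). Slc38a1 was closest to Ube2n (0.12) and Glmn (0.13), and Slc38a2 to Desi2 (0.10) and Zcchc24 (0.12). These distances share the 4 groups and the depth of the same libraries and are given as descriptions.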

How the data were processed

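The 20 total RNA libraries were made with a kit that keeps strand, per the labels' protocols. The authors deposited 4 tables of log2 CPM, 1 per comparison of 2 groups with 10 libraries each, per the file headers, and no sample column was left unused. The genome build was mm10, per the submitters' processing notes. The aligner, the counting, the gene filter and the scaling are not given in the sources used here.

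The lowest and highest deposited value of each gene and group of 5 lay where clipping at the 10th and 90th percentile puts them (0.6 of the extreme value and 0.4 of its neighbour), which was inferred from the values and undone. Values within 0.05 of a whole read (tested up to 500 reads) then accounted for at least 99.91% of the values of a library, against 45.5% to 92.8% as deposited. Each library is in a pair of tables, where the 9 genes had identical reads but log2 values that differed by 0.113 to 0.174, so each test stayed within its table. Levels come from the table that compares N and OGD of a genotype.

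Each comparison was fitted with limma 3.58.1 (intensity trend) in R 4.3.3 on unclipped log2 CPM, two-sided, without a block, and adjusted by Benjamini-Hochberg over all genes of the table. Exact permutation tests of single genes were two-sided. The interaction used the recovered reads of 13688 genes in all tables, scaled to their total with a prior count of 2. Code was tested on simulated data. Summaries and figures were made in Python 3.11.15. Gene positions and exon lengths came from GENCODE mouse release M21, and promoters from RefSeq.

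Same-numbered N and OGD libraries share a genotype label and a batch, per the labels. Their deviations from the group means correlated at -0.64 to 0.06 in WT and -0.79 to -0.07 in KO. The 9 genes and the lists of other genes and markers were chosen with earlier results of these data known. Named by rule are the 9 genes, the other glutamate genes called in both genotypes with the largest rises and falls (up to 5 each, mean of at least 1 log2 CPM), 7 direct relatives, and the 2 genes most alike to each of the 9; 1 relative is not reported here. Genes in the marker and library paragraphs were named after their values were seen. Alternatives were other scalings, a prior count of 0.5, a filter at 1 log2 CPM, the clipped values, left-out libraries, a block, batches 3.1 to 3.3 alone (batch 3) and voom. A further alternative for the knockout comparisons had batch (1, 2 or 3) as a covariate. Voom and scaling to the total were added after seeing the data.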

Additional observations from a re-analysis of the deposited data

Results flagged for a closer look

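In each of the 36 sets of 5 libraries (9 genes in 4 groups), the library at either end was compared with the others by Dixon's ratio of gap to range at 95%. Chance alone passes about 1 in 20 sets, which is 1.8 of 36, and 4 passed, all in OGD_KO. In culture 5 of OGD_KO, Slc17a7 was lowest at 2.36 log2 CPM, with the others at 3.33 to 3.54. The same library was lowest for Slc38a1 at 6.76, with the others at 7.45 to 7.64, and for Slc38a2 at 6.25, with the others at 6.66 to 6.77. This library also had the highest share of mt-Rnr2 of its group, 32.0% against 18% to 22.0%, and the fewest recovered reads, 7496145, and the part of these in its low values was not tested. In culture 2 of OGD_KO, Glul was highest at 7.59, and the others lay between 7.36 and 7.37.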

How the results depend on the processing

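Of the 9 genes, the number called under OGD in WT stayed between 5 and 7 under all alternatives. In KO it was 5, but 8 with the clipping kept and 3 in batch 3 alone. Leaving out 1 library at a time gave 5 to 7 in WT and 4 to 7 in KO. Slc1a1, Slc17a6 and Slc17a7 passed in both genotypes, and Slc1a3 in WT, under all alternatives run. Slc1a3 in KO was lost in batch 3 alone. Over all genes, clipping kept raised the calls by knockout under OGD from 4 to 12 and in normoxia from 5 to 9, and batch 3 alone lowered those under OGD in KO from 5884 to 2341. With the replicate block, 6 genes were called under OGD in WT, since Slc38a1 was lost, and 5 in KO. The interaction with culture as the block called 0 of 9. A shared number does not link WT and KO cultures, so this block says nothing on the knockout comparisons. With batch as a covariate, these called 0 of 9 in each condition. No same-numbered pair of N and OGD libraries correlated best with its own number. No called difference changed direction. Genes under 200 reads, such as Slc17a7 under OGD, have the least precision.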
